A study of Homo sapiens with 12 samples.

Results

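SPP1, NRCAM, SEMA4B, IKZF2 and SLC22A25 are 5 genes that were chosen by the difference of their counts between NRF2 and GFP cells in these same libraries, as genes outside the detoxification enzymes for which NRF2 is best known. They are 5 of the 55242 genes left in the count tables once genes named as rRNA had been removed. RNA was sequenced from Hs 578T cells, a triple-negative breast cancer (TNBC) line of the mesenchymal stem-like subtype, after lentiviral transduction for the expression of full-length NRF2 or of GFP as a control. Each kind of cell was then kept for 8 h in medium with Cyss (0.8 mM l-cystine, the oxidized form of cysteine) or in the same medium without Cyss. Both media held serum, methionine and glutamine, and there were 3 libraries in each of the 4 groups. A single cell line was used, and the labels do not say whether the 3 libraries of a group came from separate cultures, so that p-values measure only the spread between these libraries. The libraries held between 27250993 and 44596870 reads on genes (median 32857536).

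NRF2, encoded by NFE2L2, is a transcription factor that KEAP1 holds at a low level by targeting it for degradation, and that binds antioxidant response elements (AREs) in DNA with small MAF proteins. Its canonical targets make and recycle glutathione and thioredoxin, import Cyss through SLC7A11, and remove reactive carbonyls and drugs. The 5 genes have other functions. SPP1 encodes osteopontin, a secreted phosphoprotein of bone matrix and of many tumors that binds integrins and CD44. NRCAM encodes an adhesion molecule of the L1 family that is best known from neurons. SEMA4B encodes a membrane-bound class 4 semaphorin, a family of guidance ligands. IKZF2 encodes Helios, a zinc finger transcription factor of the Ikaros family that is known from T cells. SLC22A25 encodes a member of the SLC22 family of organic ion transporters.

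The label of the NRF2 libraries was checked by the count of NFE2L2 itself. Normalized counts (raw counts scaled to a common library size by TMM over the 12 libraries) were 3796, 3647 and 3842 in GFP cells with Cyss and 6598, 6618 and 6940.4 in NRF2 cells with Cyss. Without Cyss they were 4655, 4584 and 4501 in GFP cells and 7401, 8175 and 8396 in NRF2 cells. NFE2L2 was higher in every NRF2 library than in every GFP library, with a log2FC of 0.84 ± 0.038 (SE) with Cyss and 0.79 ± 0.052 without Cyss (edgeR's quasi-likelihood test, adjusted p = 4.58e-10 and 6.38e-06). Counts by gene symbol cannot separate the transduced NRF2 from the cells' own. In bulk RNA, a change in the number of cells that make a transcript and a change in the amount per cell cannot be told apart. The 7 mesenchymal markers summed to between 981683 and 1101760 normalized counts per library, led by FN1 and VIM. Of 8 epithelial markers, 4 reached a group mean of 10 (CDH1, KRT8, KRT18 and CLDN4), with KRT18 from 773 to 1473 and KRT8 from 151 to 233, whereas EPCAM had at most 1.03 and KRT19 at most 3.09. Their sum ranged from 1120 to 1260 in GFP and from 942 to 1050.0 in NRF2 cells with Cyss, and from 1348 to 1699 and from 1338 to 1591 without Cyss. The part of the epithelial markers in the results was not tested.

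**Figure D1:**
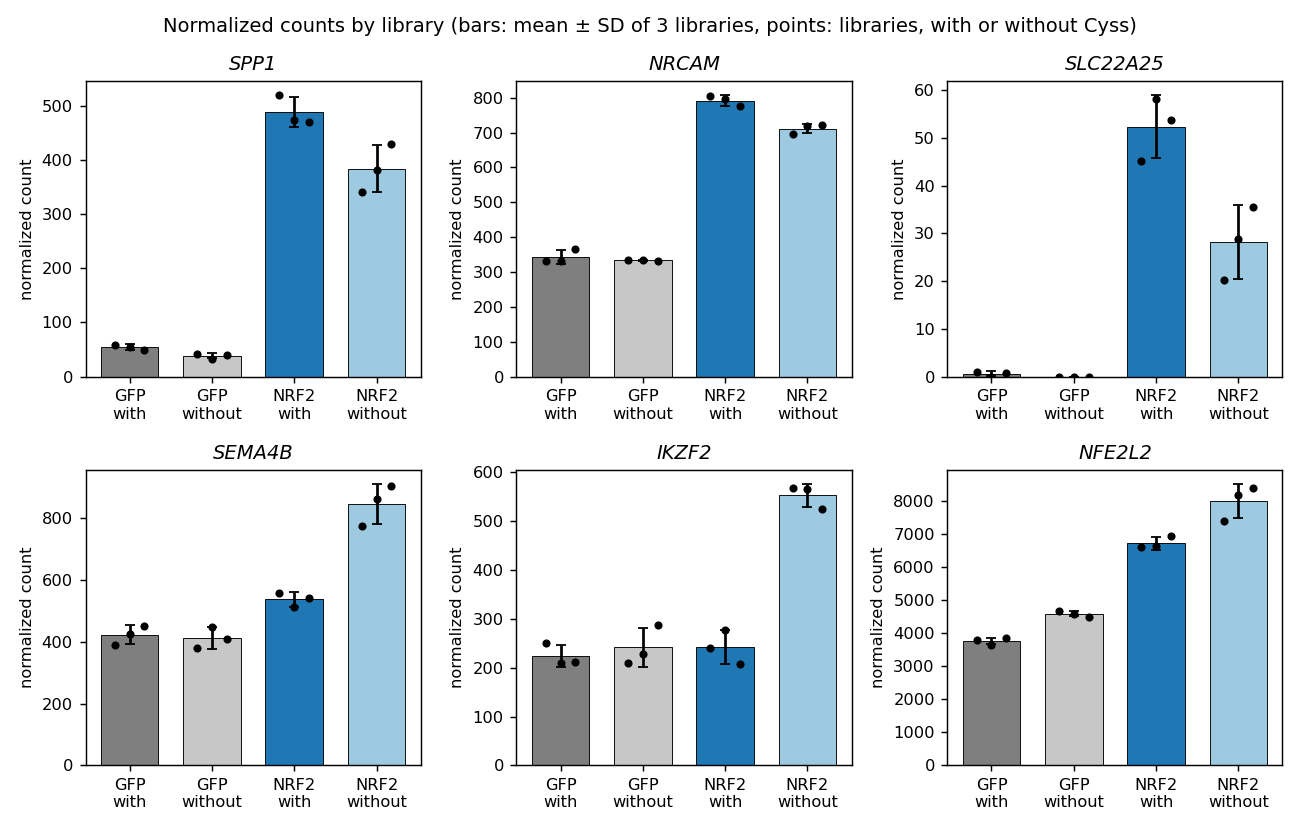
Normalized counts of the 5 genes and of NFE2L2 in GFP and NRF2 cells grown with or without Cyss. Bars show the mean ± SD of 3 libraries and points show the libraries, on linear axes that start at 0 and differ between genes. SPP1, NRCAM and SLC22A25 are high in both NRF2 groups, whereas IKZF2 is high only in the 3 NRF2 libraries without Cyss, at 525 to 568.

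SPP1, on the forward strand of chromosome 4 (chr4:88896819-88904684 in GRCh37, ENSG00000118785), has 7 exons in its canonical transcript. In GFP cells with Cyss its normalized counts were 59.1, 55.2 and 49.0, and in NRF2 cells with Cyss they were 519, 473 and 469. Without Cyss, GFP cells had 42.0, 33.3 and 40.7, and NRF2 cells had 341, 380.4 and 428. No NRF2 library overlapped with a GFP library in either medium. SPP1 was 8.92-fold higher in NRF2 cells with Cyss (log2FC 3.16 ± 0.096) and 9.76-fold higher without Cyss (3.29 ± 0.14). These differences chose the gene and are given as a description, without a test. The 4 group means followed the order GFP without Cyss (38.7 ± 4.67 SD), GFP with Cyss (54.4 ± 5.10), NRF2 without Cyss (383 ± 43.5) and NRF2 with Cyss (487 ± 27.7), with no overlap between neighbors in this order. In GENCODE 44 exons of SPP1, IKZF2 and SLC22A25 each overlap with a gene of the opposite strand (CCND2P1 for SLC22A25), and counting without regard to strand cannot assign reads there. No such overlap was found for NRCAM or SEMA4B.

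NRCAM lies on the reverse strand of chromosome 7 (chr7:107788068-108097161, ENSG00000091129). With Cyss, GFP libraries had 332, 332 and 365 normalized counts and NRF2 libraries had 806, 795 and 775. Without Cyss the values were 334, 334 and 333 in GFP cells and 695, 719 and 721 in NRF2 cells. The GFP libraries with and without Cyss overlapped, and every NRF2 library lay above all of them. NRCAM was 2.31-fold higher in NRF2 cells with Cyss (log2FC 1.21 ± 0.060) and 2.11-fold higher without Cyss (1.08 ± 0.063). It was the least variable of the 5 genes within a group, with a coefficient of variation from 0.228 to 5.62% in the 4 groups. Of 3 markers of neurons, RBFOX3 reached at most 1.10 normalized counts in any library. Their summed level, nearly all from SYT1 and SNAP25, ranged from 1298 to 1348 in GFP and from 1489 to 1540.2 in NRF2 cells with Cyss, and from 1188 to 1342 and from 1331 to 1471 without Cyss. The part of these markers in the NRCAM values was not tested.

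SLC22A25 lies on the reverse strand of chromosome 11 (chr11:62925909-63011071, ENSG00000196600) and was nearly absent from GFP cells. It had 1, 0 and 1 raw reads in the GFP libraries with Cyss and 0 in each of the 3 without Cyss. NRF2 cells had 37, 55 and 49 reads with Cyss and 19, 28 and 36 without Cyss, or 45.1, 58.1 and 53.7 and 20.2, 28.9 and 35.6 normalized counts. With Cyss, 141 reads in NRF2 cells against 2 in GFP cells gave a ratio of 95.2, with an exact 95% interval from 25.9 to 794 that covers counting error only. Without Cyss, 83 reads against none gave a level at least 26.3-fold higher in NRF2 cells, with 3 reads over the GFP group taken as the limit that a count of 0 allows. SLC22A25 passed the filter on low counts only through the NRF2 libraries, so that a difference was built into its being tested. Its level remained low also in NRF2 cells. The 3 hepatocyte markers ALB, APOA1 and TTR were near 0, with a sum from 0.989 to 4.40 per library in the 4 groups.

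SEMA4B lies on the forward strand of chromosome 15 (chr15:90703836-90772911, ENSG00000185033). With Cyss, its normalized counts were 391, 426 and 451 in GFP libraries and 558, 511 and 542 in NRF2 libraries. Without Cyss the values were 378, 447 and 409.9 in GFP cells and 774, 859.8 and 902 in NRF2 cells. The GFP libraries of the 2 media overlapped, the NRF2 libraries with Cyss lay just above them and those without Cyss stood clear of all others. The difference between NRF2 and GFP cells was 1.27-fold with Cyss (log2FC 0.34 ± 0.067) and 2.04-fold without Cyss (1.03 ± 0.080).

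IKZF2 lies on the reverse strand of chromosome 2 (chr2:213864415-214017151, ENSG00000030419). With Cyss it had 250.4, 209 and 212 normalized counts in GFP cells and 241, 278 and 207 in NRF2 cells, and these groups overlapped. Without Cyss it had 209, 229 and 287 in GFP cells and 568, 565 and 525 in NRF2 cells, with no overlap. Without Cyss, IKZF2 was 2.27-fold higher in NRF2 than in GFP cells (log2FC 1.18 ± 0.10), whereas with Cyss the log2FC was 0.12 ± 0.11. A description of IKZF2 as raised by NRF2 therefore held in the medium without Cyss, and with Cyss its values did not separate. Of 5 blood cell markers, CD3D and CD3E had no reads in any of the 12 libraries, FOXP3 had at most 3.497 normalized counts, PTPRC had 18.8 to 52.9 and CD14 had 19.1 to 29.9. Their sum ranged from 50.7 to 83.8 in GFP and from 50.4 to 59.2 in NRF2 cells with Cyss, and from 57.2 to 69.0 and from 41.5 to 56.7 without Cyss. The part of these markers in the IKZF2 values was not tested.

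**Figure D2:**
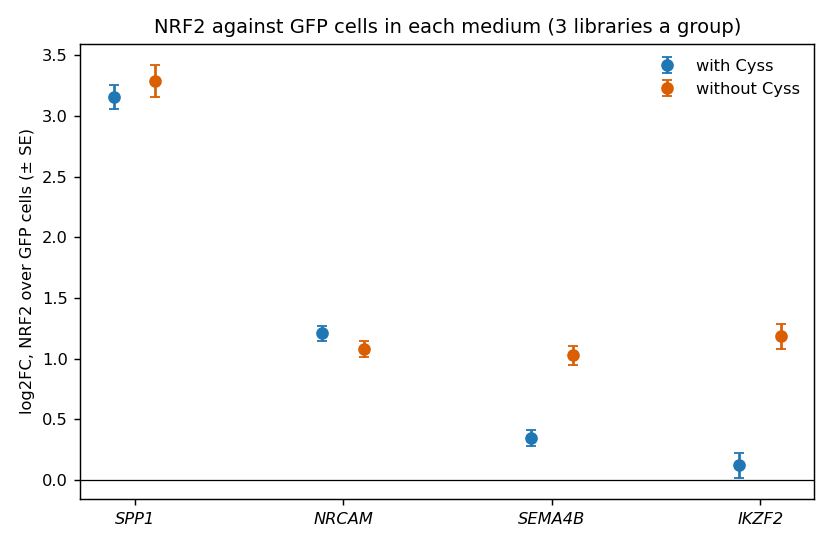
log2FC of NRF2 over GFP cells for 4 of the genes, with Cyss (blue) and without Cyss (orange), as points with the SE of the fit on 3 libraries per group. SPP1 (3.16 and 3.29) and NRCAM (1.21 and 1.08) lie at similar heights in both media, whereas SEMA4B (0.34 and 1.03) and IKZF2 (0.12 and 1.18) lie higher without Cyss. SLC22A25 is left out because GFP cells had 2 reads or none.

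With Cyss, 4 of the 5 genes did not overlap between NRF2 and GFP libraries, and without Cyss all 5 did not. Over all genes tested, 24.8 and 38.5% did not overlap in these comparisons. Between the media, 23.9% of genes did not overlap in GFP cells and 37.9% in NRF2 cells. A gene was called when its adjusted p was under 0.1 and its log2FC above 0.32 in size. By this rule, 1.36% of the 17449 genes tested were called higher and 0.201% lower in NRF2 than in GFP cells with Cyss, and 5.98 and 4.09% of 17297 without Cyss. Since the genes were chosen on these contrasts, nothing is read from their place among all genes. Ordered by log2FC, which for SLC22A25 depends on the small prior count that edgeR adds, SLC22A25, SPP1, NRCAM, SEMA4B and IKZF2 held places 6, 17, 69, 946 and 3678 with Cyss. Without Cyss, SLC22A25, SPP1, IKZF2, NRCAM and SEMA4B held places 1, 9, 101, 130 and 143.

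The genes differed widely in level when compared per kilobase of canonical transcript. In NRF2 cells with Cyss, SPP1 had 312 normalized counts per kilobase, SEMA4B 142, NRCAM 118, IKZF2 25.3 and SLC22A25 6.39. In GFP cells with Cyss the order differed, with SEMA4B at 112, NRCAM at 51.2, SPP1 at 34.8, IKZF2 at 23.4 and SLC22A25 at 0.0714 per kilobase. For scale, the osteopontin receptor CD44 had 6471 per kilobase in NRF2 cells with Cyss. These levels assume that the canonical transcript is the one expressed, which counts per gene do not show.

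The response of these genes to Cyss deprivation was examined within GFP cells and within NRF2 cells. These contrasts use the same libraries as those that chose the genes, so that the calls are not independent of the choice. In GFP cells, where 1.57% of 17452 genes were called higher and 0.533% lower without Cyss, none of the 4 genes tested was called by edgeR or by DESeq2, which gave SPP1 no adjusted p. By edgeR, 1 of them, SPP1, had an unadjusted p under 0.05, as had 3160 of the 17452 genes tested. SLC22A25 did not pass the filter on low counts there. In NRF2 cells, where 6.81% of 17266 genes were called higher and 5.14% lower, SPP1 and SLC22A25 met the rule as lower. IKZF2 and SEMA4B met it as higher, and NRCAM did not meet it. All 5 were chosen through these NRF2 libraries, so that no call is read for them. The median log2FC of the 5 was -0.16, beside -0.012 over all genes tested.

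IKZF2 and SEMA4B were higher in NRF2 cells without Cyss than in those with Cyss. For IKZF2 the means were 242 ± 35.3 with and 553 ± 23.8 normalized counts without Cyss (mean ± SD, n = 3), a log2FC of 1.19 ± 0.094. For SEMA4B they were 537 ± 23.8 and 845 ± 65.1, a log2FC of 0.65 ± 0.070. IKZF2, and in large part SEMA4B, differed from GFP cells through the same 3 NRF2 libraries without Cyss, so that both differences are given as a description, without a test. In GFP cells the same change of medium gave a log2FC of 0.11 ± 0.12 for IKZF2 (95% interval from -0.12 to 0.34) and of -0.042 ± 0.077 for SEMA4B (from -0.19 to 0.11), with edgeR adjusted p = 0.665 and 0.815. The response in NRF2 cells exceeded that in GFP cells by 1.08 ± 0.16 on the log2 scale for IKZF2 and by 0.70 ± 0.11 for SEMA4B. This excess was not tested, because it equals the difference between the contrasts on which the genes were selected.

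SPP1 and SLC22A25 fell in NRF2 cells upon Cyss deprivation. Both genes were chosen through their counts in NRF2 cells, which were highest with Cyss. Their falls are therefore given as a description, without a test. SLC22A25 fell from 52.3 ± 6.62 to 28.2 ± 7.72 normalized counts, a log2FC of -0.89 ± 0.22. Its libraries of the 2 media did not overlap, as for 37.9% of all genes tested there. SPP1 fell from 487 ± 27.7 to 383 ± 43.5, a log2FC of -0.34 ± 0.086. This log2FC was -0.30 without NRF2 with Cyss replicate 1 and -0.27 without NRF2 without Cyss replicate 1, both under the size required for a call. The latter library had the largest share of reads outside genes, 7.84%, against 5.82 to 6.69% in the other 11. In GFP cells, where 23.9% of all genes tested did not overlap between the media, the SPP1 libraries without Cyss all lay below those with Cyss. Their log2FC of -0.49 ± 0.16 did not pass the test (edgeR adjusted p = 0.133). With no filter on low counts it did (log2FC -0.50, edgeR adjusted p = 0.0996). The SPP1 responses of NRF2 and GFP cells differed by 0.14 ± 0.19 on the log2 scale, less than the SE.

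NRCAM stayed under the size required for a call. Its log2FC upon Cyss deprivation was -0.16 ± 0.058 in NRF2 cells (95% interval from -0.27 to -0.043), given as a description. In GFP cells it was -0.040 ± 0.068 (from -0.17 to 0.094, edgeR adjusted p = 0.801). In NRF2 cells the libraries of the 2 media did not overlap, with 775 to 806 normalized counts with Cyss and 695 to 721 without. This held for 37.9% of all genes tested there. Thus in the same NRF2 libraries IKZF2 and SEMA4B had higher values without Cyss, and SPP1, SLC22A25 and NRCAM had lower ones. The SPP1 value lay beyond the size required for a call and that of NRCAM under it. In some fits with a library left out, the SPP1 value passed under it too.

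**Figure D3:**
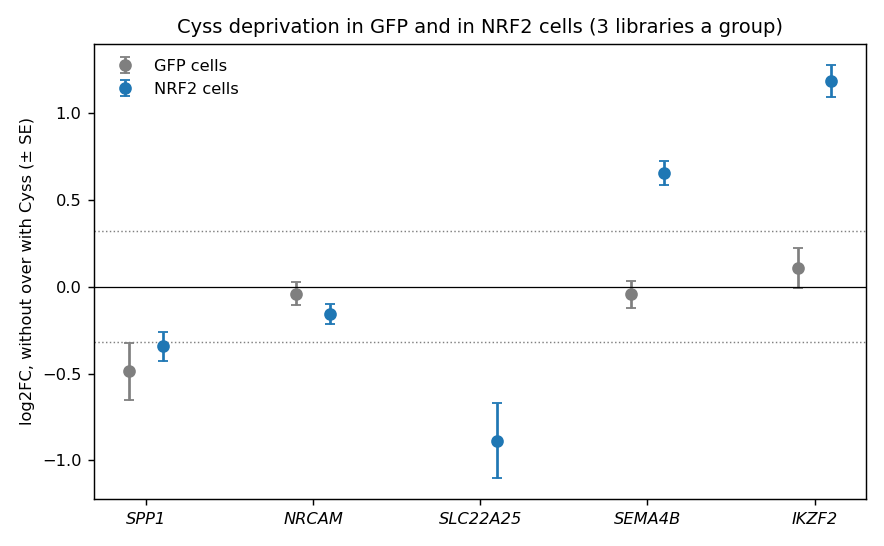
log2FC upon Cyss deprivation in GFP cells (gray) and NRF2 cells (blue), as points with the SE of the fit on 3 libraries per group, and with dotted lines at the size required for a call (0.32 in either direction). In NRF2 cells IKZF2 (1.19) and SEMA4B (0.65) lie above and SLC22A25 (-0.89) and SPP1 (-0.34) below these lines. In GFP cells IKZF2, SEMA4B and NRCAM lie near 0, SPP1 lies at -0.49 without passing the test, and SLC22A25 has no point because it did not pass the filter on low counts.

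Canonical NRF2 targets were set beside these patterns. This list was drawn up with earlier results of these data known. The paper named some of its genes, OSGIN1 and AKR1B10 among them, as raised by NRF2 in these same libraries. Their calls are therefore not independent of the choice. Of the 28 listed and tested, 14 were called higher in NRF2 cells with Cyss and 13 without Cyss, and none lower, with a median log2FC of 0.32 and 0.28. DESeq2 called 12 and 14, all of them higher, and with Cyss gave no adjusted p for 2, AKR1C2 and ABCC2. By edgeR, 24 and 18 had an unadjusted p under 0.05. Over all genes tested, 3321 of 17449 with Cyss and 5962 of 17297 without had such a p. The largest differences with Cyss were those of AKR1C2 (log2FC 2.19 ± 0.15), AKR1B10 (1.44 ± 0.088) and AKR1C1 (1.33 ± 0.040), all aldo-keto reductases, with edgeR adjusted p = 8.12e-08, 2.70e-08 and 2.09e-12. Without Cyss the same 3 genes led with 1.45 ± 0.18, 0.89 ± 0.13 and 0.87 ± 0.052 (edgeR adjusted p = 0.000423, 0.000970 and 2.78e-06). AKR1C1 and AKR1C2 are near-identical neighbors, and reads may be divided between them with error. Upon Cyss deprivation in NRF2 cells, 13 of the 28 fell and none was called higher, by edgeR or by DESeq2. In GFP cells 9 fell, and HMOX1 was called higher (log2FC 0.44 ± 0.051, edgeR adjusted p = 0.000209). The SPP1, SLC22A25 and NRCAM values in NRF2 cells had the sign of this list's median (-0.30), and those of IKZF2 and SEMA4B the opposite sign.

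Relatives and partners of the 5 genes were examined in the same way through 9 lists with 70 genes, also drawn up with earlier results known. With Cyss, 40 of the 70 were tested, 4 were called higher and 1 lower in NRF2 cells, and the median log2FC was 0.064, beside -0.0039 over all genes tested. Without Cyss, 39 were tested, 5 were called higher and none lower, and the median was 0.13, beside -0.016. DESeq2 called 3 with and 4 without Cyss, and gave no adjusted p for 11 and 5 of the genes. Upon Cyss deprivation in NRF2 cells, 8 of 40 were called, 6 higher and 2 lower, with a median log2FC of 0.056 beside -0.012 over all genes tested. In GFP cells 1 of 39 was called, and it was higher, with a median of 0.024 beside 0.0015. For scale, 1.36% of all genes tested were called higher and 0.201% lower in NRF2 against GFP cells with Cyss. Without Cyss these shares were 5.98 and 4.09%. Upon Cyss deprivation they were 6.81 and 5.14% in NRF2 cells and 1.57 and 0.533% in GFP cells. For the unadjusted counts below, 3321 of 17449 genes with Cyss and 5962 of 17297 without had an unadjusted p under 0.05 in NRF2 against GFP cells.

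For osteopontin, all 10 listed receptors were detected and 1 was called. ITGB3, the beta subunit of the vitronectin receptor, had a mean of 96.4 ± 18.7 normalized counts in GFP cells and of 159 ± 5.73 in NRF2 cells without Cyss, a log2FC of 0.71 ± 0.14 (edgeR adjusted p = 0.00438). With Cyss its log2FC was 0.19 ± 0.13 and it was not called (edgeR adjusted p = 0.450). No receptor was called with Cyss by edgeR or DESeq2, and 3 had an unadjusted p under 0.05. CD44, an abundant receptor of hyaluronan and osteopontin, was not called in NRF2 against GFP cells in either medium, on size only. Its log2FC was -0.12 ± 0.032 with and 0.28 ± 0.050 without Cyss (edgeR adjusted p = 0.0543 and 0.00272). CD44 rose in NRF2 cells upon Cyss deprivation (0.41 ± 0.040, edgeR adjusted p = 2.73e-06). ITGB3 rose there as well (0.59 ± 0.11, edgeR adjusted p = 0.00159).

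Of 5 genes for proteases that cut osteopontin, 3 were tested in NRF2 against GFP cells, and 1 was called with and 2 without Cyss. MMP9 and F2 had too few reads, and MMP7 was not called, with a log2FC of 0.98 ± 0.40 with and 0.64 ± 0.39 without Cyss (edgeR adjusted p = 0.190 and 0.272). MMP3 (stromelysin-1) had means of 256 ± 7.24 in GFP and 351 ± 33.9 normalized counts in NRF2 cells with Cyss, and of 429 ± 129 and 1121 ± 279 without Cyss. It was called higher in NRF2 cells in both media, by 0.46 ± 0.080 with and 1.38 ± 0.19 without Cyss on the log2 scale (edgeR adjusted p = 0.00383 and 0.000726). The call with Cyss was lost with all 12 libraries in the fit. PLAU (urokinase) was called without Cyss (log2FC 0.67 ± 0.11, edgeR adjusted p = 0.00159) and had a log2FC of -0.022 ± 0.037 with Cyss. Both rose in NRF2 cells upon Cyss deprivation, MMP3 by 1.67 ± 0.14 and PLAU by 0.99 ± 0.067 on the log2 scale (edgeR adjusted p = 5.87e-07 and 8.44e-08). In GFP cells MMP3 was called higher too (0.74 ± 0.16, edgeR adjusted p = 0.0229), and PLAU had a log2FC of 0.28 ± 0.088 that was not called (edgeR adjusted p = 0.109).

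Among other genes of bone, 1 was called in NRF2 against GFP cells, and it was lower. Of the 4 other genes of the SIBLING family, to which osteopontin belongs, IBSP (bone sialoprotein) had enough reads for a test. Its log2FC in NRF2 against GFP cells was 0.00012 ± 0.21 with and -0.24 ± 0.21 without Cyss, and it was called in neither medium. The family's DMP1, DSPP and MEPE had no reads in NRF2 cells with Cyss. Of 7 bone matrix genes, 5 were tested and ALPL (alkaline phosphatase) was called lower in NRF2 cells with Cyss, with a log2FC of -0.39 ± 0.089 (edgeR adjusted p = 0.0254) that was not called without NRF2 with Cyss replicate 2 or without GFP with Cyss replicate 2. ALPL rose in NRF2 cells upon Cyss deprivation (0.56 ± 0.093, edgeR adjusted p = 0.00054). No bone matrix gene was called without Cyss by edgeR or DESeq2, with 1 at an unadjusted p under 0.05.

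Among the L1 family and its partners, 5 of 9 genes were tested and none was called with Cyss by edgeR or DESeq2, with 2 at an unadjusted p under 0.05. ANK3, the gene for ankyrin-G that anchors L1 proteins to the cytoskeleton, was called without Cyss (log2FC 0.67 ± 0.22, edgeR adjusted p = 0.0525) and had a like value with Cyss (0.69 ± 0.24, edgeR adjusted p = 0.133). DESeq2 gave it no adjusted p in either medium, and without Cyss its call was lost on leaving out NRF2 without Cyss replicate 1 or GFP without Cyss replicate 1 or 2. Its relative ANK2 rose in NRF2 cells upon Cyss deprivation (0.35 ± 0.11, edgeR adjusted p = 0.0362), and that call was lost with scaling by library size only and without NRF2 with Cyss replicate 3 or NRF2 without Cyss replicate 1. Of the class 4 semaphorins other than SEMA4B, 4 of 5 were tested, and none was called in either medium by edgeR or DESeq2, with none at an unadjusted p under 0.05 with Cyss and 1 without. Of the 4 plexins listed as their receptors, PLXNB3 was called with Cyss (log2FC 0.48 ± 0.067, edgeR adjusted p = 0.000517), where SEMA4B differed less. All 4 had an unadjusted p under 0.05 there. PLXNB1 (0.30 ± 0.048, edgeR adjusted p = 0.00175) and PLXNB2 (0.17 ± 0.045, edgeR adjusted p = 0.0474) stayed under the size required. Without Cyss PLXNB3 had 0.071 ± 0.088, and none of the 4 was called by edgeR or DESeq2, with 2 at an unadjusted p under 0.05.

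Of the 4 other Ikaros family genes, IKZF4 and IKZF5 were tested and neither was called in either medium by edgeR or DESeq2, with none at an unadjusted p under 0.05. Of 22 other SLC22 genes, 6 were tested with Cyss and 5 without. SLC22A17 (log2FC 0.49 ± 0.13) and SLC22A18 (0.44 ± 0.14) were called higher in NRF2 cells with Cyss, with edgeR adjusted p = 0.0537 and 0.0998. DESeq2 gave neither an adjusted p, and SLC22A18 stayed called under 3 of the 13 other alternatives and SLC22A17 under 9 of 13. SLC22A23 was called without Cyss (0.50 ± 0.059, edgeR adjusted p = 0.000370). Upon Cyss deprivation in NRF2 cells, SLC22A5 fell (log2FC -0.34 ± 0.083, edgeR adjusted p = 0.00872), a call that was lost without NRF2 without Cyss replicate 2 or 3. SLC22A14 fell there too (-0.86 ± 0.35, edgeR adjusted p = 0.0948), with no adjusted p from DESeq2 and a call under 7 of the 13 other alternatives. The genes next to SLC22A25 on chromosome 11 had almost no reads: SLC22A24 (14216 bases away) and SLC22A10 (24423 bases away) had 0 in all 12 libraries, and SLC22A9 had 1 read in all, in NRF2 cells with Cyss.

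**Figure D4:**
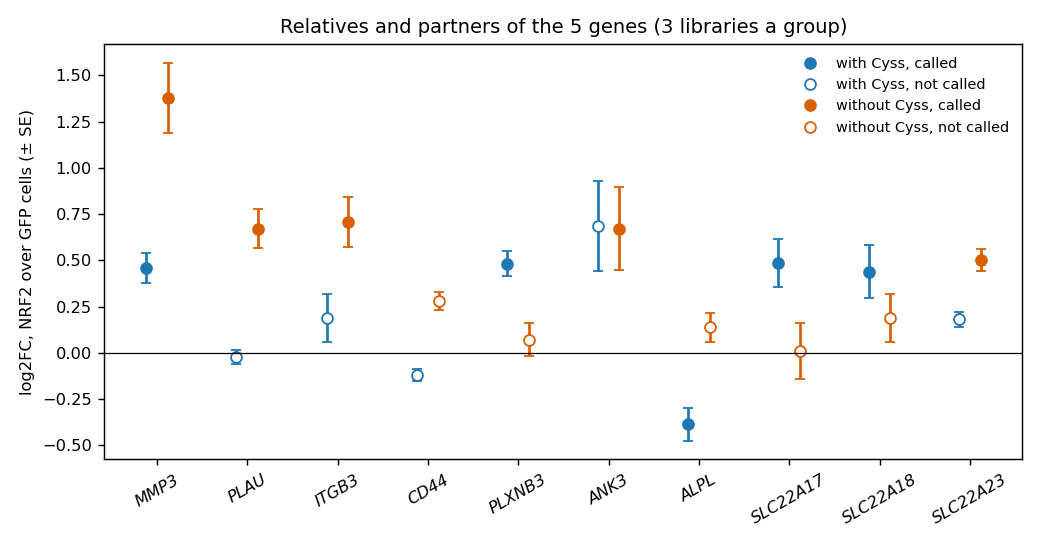
log2FC of NRF2 over GFP cells with Cyss (blue) and without Cyss (orange) for the 9 relatives and partners that were called in either medium and for CD44, as points with the SE of the fit on 3 libraries per group. Filled points were called and open points were not. MMP3 without Cyss (1.38) is the highest point, and ALPL with Cyss (-0.39) is the lowest.

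Genes near the 5 were examined to see whether whole regions differed. Of all genes tested in NRF2 against GFP cells, 1.36% were called higher and 0.201% lower with Cyss. Without Cyss 5.98% were called higher and 4.09% lower. An unadjusted p under 0.05 was found for 3321 of 17449 genes with Cyss and for 5962 of 17297 without. Within 500 kb of SPP1, NRCAM and IKZF2, no neighbor was called by edgeR or DESeq2 in NRF2 against GFP cells in either medium. Leaving out symbols that belong to several loci, the neighbors tested numbered 7, 8 and 1 with Cyss and 6, 8 and 1 without, of which 2, 1 and 0 with Cyss and 0, 3 and 0 without had an unadjusted p under 0.05. Near SEMA4B, 2 of 14 neighbors were called higher without Cyss, ZNF710 (log2FC 0.73 ± 0.093, edgeR adjusted p = 0.000463), which lies 78398 bases away, and ANPEP (0.53 ± 0.062, edgeR adjusted p = 0.000370), which lies 345203 bases away. With Cyss both had smaller values, 0.060 ± 0.071 and 0.074 ± 0.038, and were not called. Near SLC22A25, GNG3 was called higher with Cyss (1.14 ± 0.36, edgeR adjusted p = 0.0984) and TMEM223 lower without Cyss (-0.34 ± 0.062, edgeR adjusted p = 0.00362), of 19 tested in each. DESeq2 gave GNG3 no adjusted p. Near SEMA4B 4 neighbors with and 3 without Cyss had an unadjusted p under 0.05, and near SLC22A25 6 and 7 had one.

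To see what the starts of these genes share, the 250 bases before each start were searched on both strands for 4 motifs. RefSeq (GRCh38.p14) gave 10 windows for the 5 genes, 3 each for NRCAM and SEMA4B, 2 for IKZF2 and 1 each for SPP1 and SLC22A25. The ARE core, searched as TGACNNNGC, was in none of the 10 windows and in 10.9% of all 35116 windows. It was in 6 of the 25 windows of canonical targets, which belonged to 5 of the 19 targets with windows (EPHX1, GCLM, ME1, PGD and TXNRD1). The AP-1 motif TGANTCA, which can lie within longer AREs, was in 1 window of NRCAM, 60 to 54 bases before the start, and in 6.57% of all windows. The RUNX motif AACCACA was in the SPP1 window, 143 to 137 bases before the start, in 1 window of IKZF2, 148 to 142 bases before the start, and in 3.65% of all windows. The E-box CACGTG was in none of the 10 and in 6.34% of all. A match is a description of the letters and no evidence of binding, and windows of this length leave out distal elements.

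The matches in the 5 genes and 3 of the 6 ARE matches in canonical targets are printed below 5′ to 3′ on the strand of the gene, with the matching letters in capitals, and TXNRD1 (2 windows) and GCLM are shown as examples for comparison with the 5 genes. The SPP1 stretch covers the 150 bases before its start (chr4:87975564-87975713, forward strand, GRCh38.p14). The NRCAM stretch is chr7:108243424-108243460 and that of IKZF2 is chr2:213152583-213152619, both on the reverse strand. In IKZF2 the capitals are the RUNX motif read from the other strand. The first TXNRD1 stretch is chr12:104215665-104215703 and the second, with the ARE core on the other strand, is chr12:104286915-104286953, both on the forward strand. The GCLM stretch, with the ARE core on the other strand, is chr1:93909441-93909479 on the reverse strand.
SPP1: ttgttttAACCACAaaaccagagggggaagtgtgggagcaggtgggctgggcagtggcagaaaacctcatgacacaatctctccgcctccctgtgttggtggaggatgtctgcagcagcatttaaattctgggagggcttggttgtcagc
NRCAM: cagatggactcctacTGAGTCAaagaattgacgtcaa
IKZF2: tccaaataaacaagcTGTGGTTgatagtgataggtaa
TXNRD1, first window: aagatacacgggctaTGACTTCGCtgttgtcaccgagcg
TXNRD1, second window: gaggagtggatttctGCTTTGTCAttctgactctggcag
GCLM: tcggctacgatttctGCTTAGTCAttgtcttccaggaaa

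Finally, the genes with the pattern most like that of each of the 5 were found by Pearson's r of log2(normalized count + 1) over the 12 libraries, among 17061 genes. The points share libraries and fall into the 4 groups, so that r describes likeness only. SPP1, NRCAM and SLC22A25 were each among the 3 genes most like the others, with r from 0.991 to 0.993. All 3 were chosen for their difference between NRF2 and GFP cells in these libraries, so that a high r between them was built in. The third gene was CA12 for SPP1 (r = 0.984), which codes for a carbonic anhydrase. It was SLCO2B1, an organic anion transporter, for NRCAM (r = 0.991) and SLC22A25 (r = 0.983). The SLCO2B1 means were 0.291 with and 0.383 without Cyss in GFP cells, and 36.6 and 24.5 in NRF2 cells, so that it too was nearly absent from GFP cells. The genes compared needed a mean of 10 normalized counts over the 12 libraries, which SLCO2B1 and SLC22A25 reached only through NRF2 cells.

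SEMA4B was most like GPR176, CD82 and GNB1 (r = 0.975, 0.974 and 0.974), and IKZF2 was most like CXCL2, KIAA1217 and SOX4 (r = 0.982, 0.982 and 0.980). CXCL2, a chemokine of the inflammatory response, had a mean of 69.6 normalized counts in NRF2 cells without Cyss, against 21.8, 24.3 and 23.7 in the groups GFP with Cyss, GFP without Cyss and NRF2 with Cyss. SOX4, a developmental transcription factor, had 5207 against 3352, 3544 and 3278 in these groups. With scaling by library size only, CA12, GPR176, GNB1 and KIAA1217 were no longer among the 3 most alike.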

How the data were processed

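RNA from 12 libraries of Hs 578T cells was sequenced single end. Per the labels and the study's methods, the authors mapped reads to hg19 with TopHat2 2.1.0 and Bowtie, counted them on exons with HTSeq 0.11.2 without regard to strand, and deposited raw counts by gene symbol. The annotation is not given in the sources used here. Of the reads, 15.9 to 17.1% were not assigned to a gene. From these counts, 523 genes named as rRNA were removed. For each comparison of 2 groups, genes whose mean normalized count reached 10 in either group were kept, TMM factors were computed on them, and edgeR 4.0.16 (R 4.3.3) applied its quasi-likelihood test with Benjamini-Hochberg adjustment. The difference between responses was fitted on all 12 libraries. DESeq2 1.42.0, used by the study, was an alternative, beside other scalings, filters, a replicate block, a stricter threshold (0.05) and leaving out each library. Plots used Python 3.11.15 and matplotlib 3.10.9. The procedure was tested on simulated data.

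The 5 genes and all gene lists were chosen with earlier results of these data known. Genes named are the 5, NFE2L2, every called gene of the lists (for canonical targets the 3 with the largest log2FC) and the 3 most alike, and other genes (CD44, HMOX1, IBSP, MMP7, genes without a call, neighbors, markers) and the motifs were chosen after values were seen. Positions and lengths are from GENCODE 44 on GRCh37. Replicate libraries of a group differed by more than sampling noise (chi-square per degree of freedom from 2.11 to 11.7). Intervals of read counts cover counting error only.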

Additional observations from a re-analysis of the deposited data

Results flagged for a closer look

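Of 12 genes named for a call in NRF2 against GFP cells (9 relatives and partners and the 3 leading canonical targets), 9 responded differently to Cyss deprivation in NRF2 and GFP cells by the interaction test of edgeR on all 12 libraries (adjusted p under 0.1, as for 2669 of 17674 genes). Values are the log2 response of NRF2 cells minus that of GFP cells. These genes had been picked for calls in contrasts that enter this difference, so the tests are not independent of the choice. The other canonical targets that were called were not examined in this way. The response was higher in NRF2 cells for MMP3 (0.93 ± 0.25 SE, adjusted p = 0.0266), PLAU (0.71 ± 0.13, adjusted p = 0.00230), ALPL (0.53 ± 0.12, adjusted p = 0.0112), ITGB3 (0.53 ± 0.19, adjusted p = 0.0976) and SLC22A23 (0.33 ± 0.073, adjusted p = 0.00865). It was lower for AKR1C2 (-0.72 ± 0.24, adjusted p = 0.0722), AKR1B10 (-0.53 ± 0.15, adjusted p = 0.0330), AKR1C1 (-0.44 ± 0.062, adjusted p = 0.000671) and PLXNB3 (-0.40 ± 0.11, adjusted p = 0.0291).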

How the results depend on the processing

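Of the 5 genes, 4 met the rule for a call upon Cyss deprivation in NRF2 cells under each of the 8 alternatives of scaling, filter, tool, fit and threshold, and 3 to 4 when a library was left out. In GFP cells the count was 0 in each of these except with no filter (1, SPP1) and 0 for every library left out. The 4 were SPP1, SLC22A25, IKZF2 and SEMA4B, all given above without a test. Refits of the libraries that chose the genes show stability to the settings and cannot test the calls. Signs of uncalled values in GFP cells turned with the libraries kept, with a log2FC from -0.031 to 0.21 for IKZF2, from -0.065 to 0.0049 for NRCAM and from -0.10 to 0.017 for SEMA4B. Relatives and partners called with Cyss were 3 with DESeq2, which gave no adjusted p for SLC22A17 and SLC22A18, and fell from 5 to 3 with all 12 libraries in the fit and at an adjusted p under 0.05, and numbered 3 to 7 with a library left out. The count was 3 without NRF2 with Cyss replicate 1 or 2 and without GFP with Cyss replicate 2 or 3. Without Cyss they numbered 4 to 6, and canonical targets 13 to 16 with and 12 to 14 without Cyss. Scaling by library size only gave 936 genes higher and 1397 lower upon Cyss deprivation in NRF2 cells, against 1176 and 887 with TMM, and 876 and 1001 against 1034 and 708 for NRF2 against GFP cells without Cyss. With the replicate block, 4 genes met the rule in NRF2 cells and 0 in GFP cells, and relatives and partners called with Cyss numbered 6. The numbers were not taken as pairing, since 2 of 18 same-numbered pairs had a correlation of deviations over 0.1 (from -0.062 to 0.14) and the own number correlated best in 12 of 36 cases. With 3 libraries per group and 19 to 74 reads per library, small changes of SLC22A25 and of SPP1 in GFP cells were at the limit of this depth.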
